A study of Mus musculus with 6 samples.

Results

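The enzymes of glycolysis and of the tricarboxylic acid (TCA) cycle were followed at the RNA level in mouse lung tumors with and without the catalytic cysteine of the deubiquitinase USP24. The members were chosen by name, as the rows whose gene symbol equals one of 41 listed symbols: glucose transporters, glycolytic enzymes, lactate dehydrogenases, the pyruvate dehydrogenase complex with its kinases, TCA cycle enzymes and cytosolic malate dehydrogenase. Of these, 39 were measured among 17987 genes, 20 on the glycolysis side and 19 on the TCA side, and the RNA levels of *Pfkm* and *Eno3* were not analysed here. All 39 passed the filter on low values (a normalized count of 10 or more in 3 or more libraries), *Slc2a4* through the *Usp24C1695A* mice alone.

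Lung tumors came from 3 *Usp24C1695A* mice (M134, M145 and M164), homozygous for a germline change of the catalytic cysteine to alanine, and from 3 *Usp24WT* mice (M1354, M1364 and M1370). Both genotypes carried *Scgb1a1-rtTA* and the doxycycline-inducible *Egfr L858R* transgene, so that mutant EGFR is switched on in cells with an active *Scgb1a1* promoter (in lung, chiefly club cells of the airways). All 6 mice were on a C57BL/6J background and were given doxycycline at 0.5 g/liter for 10 weeks, 3 μg of total RNA was taken per tumor, and 1 library per mouse was read as 150-bp pairs. The labels call the mutant libraries KO, although the mutation changes 1 residue and *Usp24* RNA was at 887, 1054 and 1125 normalized counts in *Usp24C1695A* mice, against 1194, 895 and 1225 in *Usp24WT* mice, so that its level does not check the genotype. Values below are normalized counts (reads of a gene scaled by a single size factor for each library), always in the order M134, M145 and M164 for *Usp24C1695A* mice and M1354, M1364 and M1370 for *Usp24WT* mice.

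Glycolysis splits glucose into pyruvate in the cytosol, and lactate dehydrogenase interconverts pyruvate and lactate. The pyruvate dehydrogenase complex turns pyruvate into acetyl-CoA inside mitochondria, where the TCA cycle oxidizes it and supplies reducing equivalents to the respiratory chain. Several steps have isoenzymes with different tissue preferences, among them *Pgam2* in skeletal and heart muscle and *Slc2a4*, the insulin-responsive glucose transporter GLUT4, in muscle and fat, whereas *Pgam1*, *Slc2a1* and *Ldha* are widely expressed.

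The libraries held 7167000 to 12516561 gene reads in *Usp24C1695A* mice and 8950184 to 14650273 in *Usp24WT* mice, M164 being the shallowest. M164 stood apart from the other 5 libraries. Mitochondrially encoded transcripts took 2.65, 3.10 and 17.2% of the reads in *Usp24C1695A* mice, against 1.74, 3.02 and 1.84% in *Usp24WT* mice, and *Sftpc*, surfactant protein C of alveolar type 2 cells, was at 67192 normalized counts in M164, against at least 232206 in each of the other 5 mice. Transcripts of Y-linked genes were at 0 in *Usp24WT* M1364 and M1370 and summed to 3259 to 3554 normalized counts in the other 4 mice, so that the groups are unequal in this respect. M145 also differed, in lymphocyte genes. B cell markers summed to 9533 normalized counts in M145 and 3647 in M164, against 230 to 300 in M134 and the *Usp24WT* mice. T cell markers summed to 1773 in M145 and 509 in M164, against 153 to 259 in M134 and the *Usp24WT* mice. The part of these cells in the members' levels was not tested. Results that rest on M164 are given with and without it. Each group is 3 separate mice, and p-values measure the spread between these mice.

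The promoter of *Pgam2*, the only muscle isoform of the list that could be measured, is shown with that of its widely expressed partner *Pgam1*, since this pair carried the widest difference between isoenzymes of 1 glycolytic step. Both are RefSeq sequences of build GRCm38.p6, from 250 bases before to 50 bases after the start, 5′ to 3′ on the gene's strand, at chr11:5803747-5804046 (minus strand) for *Pgam2* and chr19:41911621-41911920 (plus strand) for *Pgam1*. Capitals mark the letters CTATTTTTA, of the type bound by the muscle factor MEF2, and CANNTG, the E-box of the type bound by MyoD, searched on both strands.
Pgam2: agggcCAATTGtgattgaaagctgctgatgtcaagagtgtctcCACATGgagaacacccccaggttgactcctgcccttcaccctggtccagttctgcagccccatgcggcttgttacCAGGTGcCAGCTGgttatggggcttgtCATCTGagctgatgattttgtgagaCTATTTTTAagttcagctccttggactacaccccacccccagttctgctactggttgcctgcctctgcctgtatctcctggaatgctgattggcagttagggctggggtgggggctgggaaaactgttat
Pgam1: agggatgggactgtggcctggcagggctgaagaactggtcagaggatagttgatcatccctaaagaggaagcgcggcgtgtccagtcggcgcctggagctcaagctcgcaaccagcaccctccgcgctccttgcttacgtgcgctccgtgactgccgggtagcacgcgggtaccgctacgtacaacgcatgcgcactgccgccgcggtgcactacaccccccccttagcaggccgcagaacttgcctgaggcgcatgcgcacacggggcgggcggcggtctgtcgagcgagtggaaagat
The *Pgam2* window held 1 CTATTTTTA and 5 CANNTG, with no overlap between them, and the *Pgam1* window held 0 of each. CTATTTTTA was in 0.493% of the 32851 promoters of the table, in 1 of 31 promoters on the glycolysis side and in 0 of 25 on the TCA side. CANNTG was in 72.3% of all promoters, so its presence sets few genes apart. A match is a run of letters and not a measured binding site.

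Which members differed between *Usp24C1695A* and *Usp24WT* tumors was asked first across all genes. The test was limma-trend on log2(normalized count + 1), with Benjamini-Hochberg adjustment over all 16640 genes that passed the filter, and 0 of these (0%) were called at an adjusted p under 0.05. Accordingly 0 of the 39 members were called by limma-trend, 0 by edgeR's quasi-likelihood test and 0 by DESeq2, which called 37 genes in all (0.247%), and the lowest adjusted p of a member was 0.738 by limma-trend. DESeq2 gave no p-value for 2 of the members, *Slc2a4* and *Pgam2*, so its count covers the others only. At an unadjusted p under 0.05 limma-trend held 1 member, *Slc2a4*, where 5.54% of all genes lay, edgeR held 2 (*Pgam2* and *Slc2a4*; 6.88% of all genes) and DESeq2 held 3 (*Sucla2*, *Idh3a* and *Pdk2*; 8.25%). All 3 *Usp24C1695A* mice lay above all 3 *Usp24WT* mice in 2 members, *Slc2a4* and *Mdh2*, against 5.07% of all genes, and below them in 0 members, against 6.03%. As shares of the 39 members, both counts are near or below this background. Without M164, *Slc2a4* was again the 1 member at an unadjusted p under 0.05 (3.28% of all genes), and 0 members were among the 40 genes (0.24%) that limma-trend called without M134 or the 5 (0.03%) it called without M1354. *Slc2a4* passed the filter through the *Usp24C1695A* mice alone, so its direction was partly set by the filter. Its p-values and the separation of its groups are therefore no support for a difference. The fit without M164 kept the filter set on all 6 mice.

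The values by mouse showed where the members' spread lay. M164 was the highest of the 6 mice in all 19 TCA members and in 13 of 20 glycolysis members, whereas it was the highest in 27.9% of all tested genes. M134 and M145 mostly lay among the *Usp24WT* mice: both fell within the *Usp24WT* range in 22 of 39 members (56.4%, against 35.4% of all genes). Outside it on the same side were 2 members above, *Slc2a4* and *Mdh2* (5.13%, against 7.79% of all genes), and 1 below, *Fh1* (2.56%, against 9.13%).

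**Figure D1:**
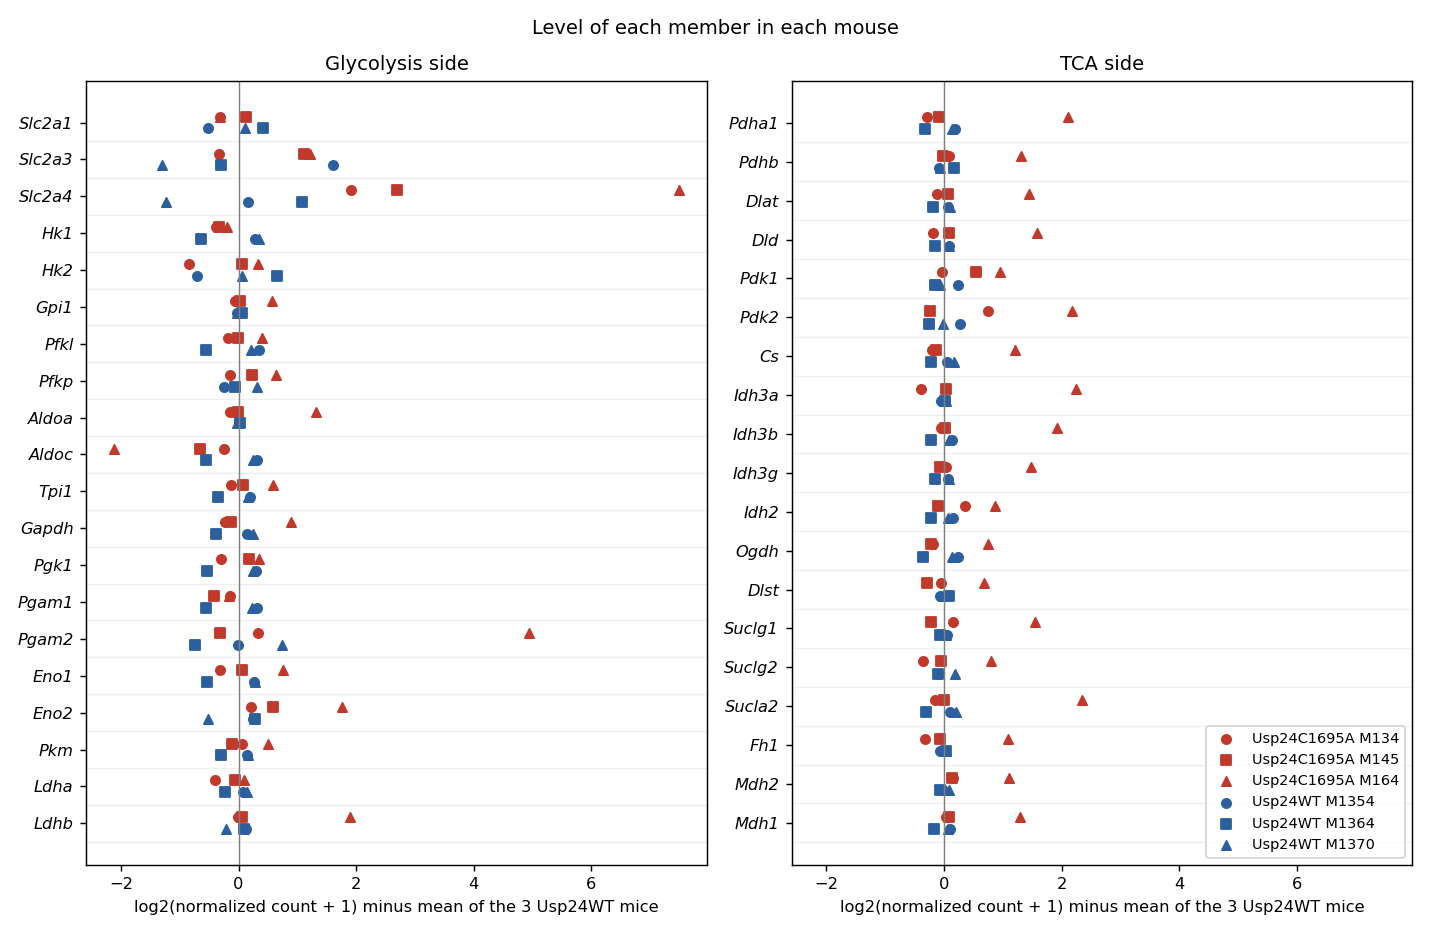
Level of each of the 39 members in each mouse, as log2(normalized count + 1) minus the mean of the 3 *Usp24WT* mice (x axis), with glycolysis members in the left panel and TCA members in the right one. Each point is 1 mouse; the red triangle, *Usp24C1695A* M164, is the rightmost point in all 19 TCA rows and in 13 of the 20 glycolysis rows, and M134 and M145 mostly lie among the blue *Usp24WT* points.

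The 3 glucose transporters differed from each other in how they were spread over the mice. *Slc2a4*, GLUT4, was at 16.2, 28.7 and 819.7 normalized counts in *Usp24C1695A* mice, against 4.16, 8.64 and 0.94 in *Usp24WT* mice. These were 16, 29 and 414 reads in *Usp24C1695A* mice and 4, 6 and 1 reads in *Usp24WT* mice, so the level was low in every mouse but M164. Its groups did not overlap, and its log2 fold change was 4.03 (SE 1.35, limma unadjusted p = 0.0166, adjusted p = 0.738) with all mice and 2.30 without M164. As it passed the filter through the *Usp24C1695A* mice alone, its direction was partly set by the filter. *Slc2a1*, GLUT1 and the widely expressed transporter, was at 216, 294 and 216 normalized counts in *Usp24C1695A* mice, against 187, 357 and 289.5 in *Usp24WT* mice. The groups overlapped, with the highest value in *Usp24WT* M1364 (log2 fold change -0.17, 95% interval -0.81 to 0.48). *Slc2a3*, GLUT3 and typical of neurons and blood cells, was at 32.4, 90.0 and 97.0 normalized counts in *Usp24C1695A* mice, against 128, 33.1 and 16.0 in *Usp24WT* mice. Here the highest and the lowest mouse were both *Usp24WT*, M1354 and M1370.

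The hexokinases trap glucose as glucose 6-phosphate. *Hk1*, the housekeeping form, was at 662, 684 and 746 normalized counts in *Usp24C1695A* mice, against 1042, 554 and 1098 in *Usp24WT* mice. *Hk2*, the inducible form, was at 948, 1777 and 2140.3 normalized counts in *Usp24C1695A* mice, against 1045, 2670.1 and 1767 in *Usp24WT* mice. *Usp24WT* M1364 was the lowest of the 6 mice for *Hk1* and the highest for *Hk2*, so that the log2 ratio of *Hk2* to *Hk1* was 0.52, 1.38 and 1.52 in *Usp24C1695A* mice, inside the span of 0.00, 2.27 and 0.69 in *Usp24WT* mice.

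In the upper part of the pathway, *Gpi1*, glucose-6-phosphate isomerase, was at 1255, 1324 and 1940.3 normalized counts in *Usp24C1695A* mice, against 1289, 1356 and 1282 in *Usp24WT* mice. Phosphofructokinase is the main control point of glycolysis. Its liver form *Pfkl* was at 239, 267 and 356 normalized counts in *Usp24C1695A* mice, against 344, 183 and 312 in *Usp24WT* mice, and its platelet form *Pfkp* at 375, 485 and 641 normalized counts in *Usp24C1695A* mice, against 347, 394 and 517 in *Usp24WT* mice. The groups overlapped for both, and M164 was the highest mouse (1.27-fold and 1.53-fold of the *Usp24WT* mean). The aldolases split fructose 1,6-bisphosphate. *Aldoa*, the form of muscle and most tissues, was at 2439, 2659 and 6696 normalized counts in *Usp24C1695A* mice, against 2706, 2728 and 2641 in *Usp24WT* mice. The 5 mice other than M164 lay between 2439 and 2728, and M164 was at 2.49-fold of the *Usp24WT* mean. *Aldoc*, the aldolase typical of brain, was at 118, 88.0 and 31.7 normalized counts in *Usp24C1695A* mice, against 173, 95 and 166 in *Usp24WT* mice. It was the only member with its lowest value in M164 (0.22-fold of the *Usp24WT* mean; log2 fold change -1.01, SE 0.50, limma adjusted p = 0.738), and without M164 its log2 fold change was -0.46.

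In the lower part of the pathway, which yields ATP and NADH, the groups overlapped for every enzyme. *Gapdh*, glyceraldehyde-3-phosphate dehydrogenase, was at 2696, 2863 and 5809 normalized counts in *Usp24C1695A* mice, against 3461, 2419.6 and 3719 in *Usp24WT* mice. *Pgk1*, phosphoglycerate kinase, was at 928, 1287 and 1447 normalized counts in *Usp24C1695A* mice, against 1397, 784 and 1347 in *Usp24WT* mice. *Eno1*, the widely expressed enolase, was at 913, 1182 and 1922 normalized counts in *Usp24C1695A* mice, against 1362, 786 and 1383 in *Usp24WT* mice. In each of these M164 was the highest mouse and *Usp24WT* M1364 the lowest. *Tpi1*, triosephosphate isomerase, was at 914, 1056 and 1505 normalized counts in *Usp24C1695A* mice, against 1138, 786 and 1112 in *Usp24WT* mice. *Pgam1*, the widely expressed phosphoglycerate mutase, was at 338, 281 and 335 normalized counts in *Usp24C1695A* mice, against 464, 256 and 441 in *Usp24WT* mice. M164 did not stand apart for *Pgam1*, since all 3 *Usp24C1695A* mice lay between the lowest and the middle *Usp24WT* mouse. *Eno2*, the enolase of neurons, was at 30.4, 39.6 and 91.1 normalized counts in *Usp24C1695A* mice, against 31.2, 31.7 and 17.9 in *Usp24WT* mice, low in every mouse and highest in M164. *Pkm*, muscle-type pyruvate kinase, was at 2729.7, 2451 and 3726 normalized counts in *Usp24C1695A* mice, against 2917, 2137 and 2927 in *Usp24WT* mice. The row for *Pkm* sums its splice forms, so the balance of the PKM1 and PKM2 forms cannot be read from it.

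*Usp24WT* M1364 set much of the spread within the *Usp24WT* group. It was the lowest of the 6 mice in 9 of 15 glycolytic enzymes, against 16.3% of all genes, with a median of 0.67-fold of the mean of the other 2 *Usp24WT* mice, where the median over all genes was 0.996. Among these enzymes *Pgam2* (0.43-fold), *Hk1* (0.52-fold), *Pfkl* and *Aldoc* (0.56-fold each), and *Pgam1*, *Pgk1* and *Eno1* (0.57-fold each) were lowest, while *Hk2* was at 1.90-fold and the transporter *Slc2a1* at 1.50-fold. On the TCA side M1364 was likewise the lowest of the 6 mice in 12 of 19 members, with a median of 0.84-fold. M1364 is also the shallowest *Usp24WT* library, and it shares the absence of Y-linked transcripts with M1370. The parts of depth and of the difference in Y-linked transcripts in this spread were not tested.

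The lactate dehydrogenase subunits behaved unlike each other. *Ldha*, the muscle-type subunit and the highest glycolysis member per length in *Usp24WT* mice, was at 3309, 4140.2 and 4643 normalized counts in *Usp24C1695A* mice, against 4583, 3718 and 4802 in *Usp24WT* mice, highest in *Usp24WT* M1370 and lowest in M134. *Ldhb*, the heart-type subunit, was at 527, 551 and 1962 normalized counts in *Usp24C1695A* mice, against 579.6, 563 and 454 in *Usp24WT* mice. The 5 mice other than M164 lay between 454 and 580, and M164 was at 3.69-fold of the *Usp24WT* mean (log2 fold change 0.65, SE 0.46; 0.027 without M164). The log2 ratio of *Ldhb* to *Ldha* was -2.65, -2.91 and -1.24 in *Usp24C1695A* mice, against -2.98, -2.72 and -3.40 in *Usp24WT* mice.

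Of the pyruvate dehydrogenase complex, all 4 subunits and both kinases had their highest value in M164, though unequally. *Pdha1*, the catalytic E1 alpha subunit that the kinases phosphorylate, was at 976, 1126 and 5142 normalized counts in *Usp24C1695A* mice, against 1359.7, 949 and 1313 in *Usp24WT* mice. *Pdhb*, its E1 beta partner, was at 1524, 1422 and 3548 normalized counts in *Usp24C1695A* mice, against 1346, 1608 and 1371 in *Usp24WT* mice. M164 was thus at 4.26-fold of the *Usp24WT* mean for *Pdha1* and 2.46-fold for *Pdhb*. *Dlat*, the E2 core, was at 886, 1000.2 and 2599.6 normalized counts in *Usp24C1695A* mice, against 1009.7, 846 and 1035 in *Usp24WT* mice. *Dld*, the E3 subunit shared with the 2-oxoglutarate dehydrogenase complex, was at 1707, 2061 and 5847 normalized counts in *Usp24C1695A* mice, against 2072, 1749 and 2062 in *Usp24WT* mice. For *Dlat* and *Dld* the other 2 *Usp24C1695A* mice lay between 0.87-fold and 1.05-fold of the *Usp24WT* mean.

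The kinases hold the complex inactive. *Pdk1*, a target of hypoxia signaling, was at 416, 620.3 and 819.7 normalized counts in *Usp24C1695A* mice, against 498, 379 and 402 in *Usp24WT* mice. M145 and M164 lay above all *Usp24WT* mice and M134 lay among them (log2 fold change 0.49, 95% interval -0.12 to 1.10; 0.26 without M164). *Pdk2*, a kinase of heart, muscle and many other tissues, was at 395, 199 and 1067 normalized counts in *Usp24C1695A* mice, against 284, 199 and 233 in *Usp24WT* mice. M134 and M164 lay above all *Usp24WT* mice and M145 at the bottom of their range, and *Pdk2* had the highest log2 fold change on the TCA side (0.89, SE 0.52; 0.25 without M164; lowest adjusted p of a member by DESeq2, 0.424).

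In the TCA cycle itself, the 12 measured enzymes had log2 fold changes from 0.11 (*Dlst*) to 0.73 (*Sucla2*), none of which passed the test. *Cs*, citrate synthase and the entry of the cycle, was at 1753, 1835 and 4667 normalized counts in *Usp24C1695A* mice, against 2087, 1733 and 2256 in *Usp24WT* mice. NAD-dependent isocitrate dehydrogenase is built of 3 kinds of subunit. Its catalytic subunit *Idh3a* was at 754, 1016 and 4718 normalized counts in *Usp24C1695A* mice, against 959.8, 1006 and 1012 in *Usp24WT* mice. The 3 *Usp24WT* mice spanned only 960 to 1012, M145 was just above them, M134 was below them, and M164 was at 4.75-fold of their mean. The regulatory subunits *Idh3b* (721, 759.8 and 2837 normalized counts in *Usp24C1695A* mice, against 818, 643 and 793 in *Usp24WT* mice) and *Idh3g* (567, 528 and 1546 normalized counts in *Usp24C1695A* mice, against 579, 494 and 588 in *Usp24WT* mice) had smaller folds in M164, 3.78 and 2.79. *Idh2*, the NADP-dependent mitochondrial form, was at 1135, 820.1 and 1614 normalized counts in *Usp24C1695A* mice, against 983, 763 and 924 in *Usp24WT* mice, with M134 and M164 above all *Usp24WT* mice.

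The 2-oxoglutarate dehydrogenase and succinyl-CoA ligase steps split the members further. *Ogdh*, the E1 subunit, was at 2199.6, 2139 and 4185 normalized counts in *Usp24C1695A* mice, against 2933, 1935 and 2726 in *Usp24WT* mice. *Dlst*, its E2 core, was at 1744, 1484 and 2887 normalized counts in *Usp24C1695A* mice, against 1723, 1929 and 1779.5 in *Usp24WT* mice. These 2 had the lowest folds of the TCA side in M164, 1.65 and 1.59. Succinyl-CoA ligase pairs the common alpha subunit *Suclg1* with a beta subunit that decides whether ATP (*Sucla2*) or GTP (*Suclg2*) is formed. *Suclg1* was at 981, 754 and 2572 normalized counts in *Usp24C1695A* mice, against 910.0, 839 and 903 in *Usp24WT* mice. *Sucla2* was at 1125, 1250.5 and 6375 normalized counts in *Usp24C1695A* mice, against 1344, 1013 and 1449 in *Usp24WT* mice. *Suclg2* was at 605, 745 and 1350.3 normalized counts in *Usp24C1695A* mice, against 729, 717 and 884 in *Usp24WT* mice. M164 was at 5.03-fold of the *Usp24WT* mean for *Sucla2*, the highest fold of the side, and at 1.74-fold for *Suclg2*. The log2 ratio of *Suclg2* to *Sucla2* was therefore -2.24 in M164, while the other 5 mice lay between -0.89 and -0.50.

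The last steps were steady among *Usp24WT* mice. *Fh1*, fumarase, was at 545, 651 and 1457 normalized counts in *Usp24C1695A* mice, against 651, 702 and 700.3 in *Usp24WT* mice, with M134 and M145 both below the *Usp24WT* range, M145 by less than 1 normalized count. *Mdh2*, mitochondrial malate dehydrogenase, was at 915, 901 and 1782 normalized counts in *Usp24C1695A* mice, against 816, 782 and 875 in *Usp24WT* mice. Its groups did not overlap, by a narrow margin in M134 and M145 (1.11-fold and 1.09-fold of the *Usp24WT* mean), and its log2 fold change was 0.46 (95% interval -0.16 to 1.09, limma adjusted p = 0.738), or 0.14 without M164. *Mdh1*, the cytosolic enzyme of the malate-aspartate shuttle, was at 1728, 1795 and 4182 normalized counts in *Usp24C1695A* mice, against 1821, 1507 and 1785 in *Usp24WT* mice.

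Compared with glycolysis, the TCA side had the higher and more even log2 fold changes. The log2 fold change was above 0 in all 19 TCA members (median 0.47) and in 14 of 20 glycolysis members (median 0.17, or 0.16 without *Pgam2* and *Slc2a4*). Over all tested genes 48.3% were above 0, with a median of -0.017. Without M164 the counts were 6 of 19 and 6 of 20, with medians of -0.039 on the TCA side and -0.069 on the glycolysis side, and over all genes 48.1% were above 0. The glycolysis median minus the TCA median was -0.30 with all mice and -0.030 without M164. M164 was at least 2-fold above the *Usp24WT* mean in 14 of 19 TCA members and 5 of 20 glycolysis members, against 13.4% of all genes.

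In single mice the difference was clear in M164, while in M145 the medians ran the other way. The median fold over the *Usp24WT* mean was 0.96 in M134, 0.96 in M145 and 2.46 in M164 on the TCA side, and 0.86, 0.996 and 1.48 on the glycolysis side. Over all genes the median fold in M164 was 0.96. The mean log2 level of the TCA side minus that of the glycolysis side, leaving out *Pgam2* and *Slc2a4*, was 0.83, 0.59 and 1.60 in *Usp24C1695A* mice, against 0.57, 0.71 and 0.70 in *Usp24WT* mice. M134 and M164 lay above the *Usp24WT* mice in this difference and M145 among them. Over all 20 glycolysis members it was 1.30, 1.07 and 1.63, against 1.18, 1.28 and 1.32, with M145 below and M164 above the *Usp24WT* mice.

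**Figure D2:**
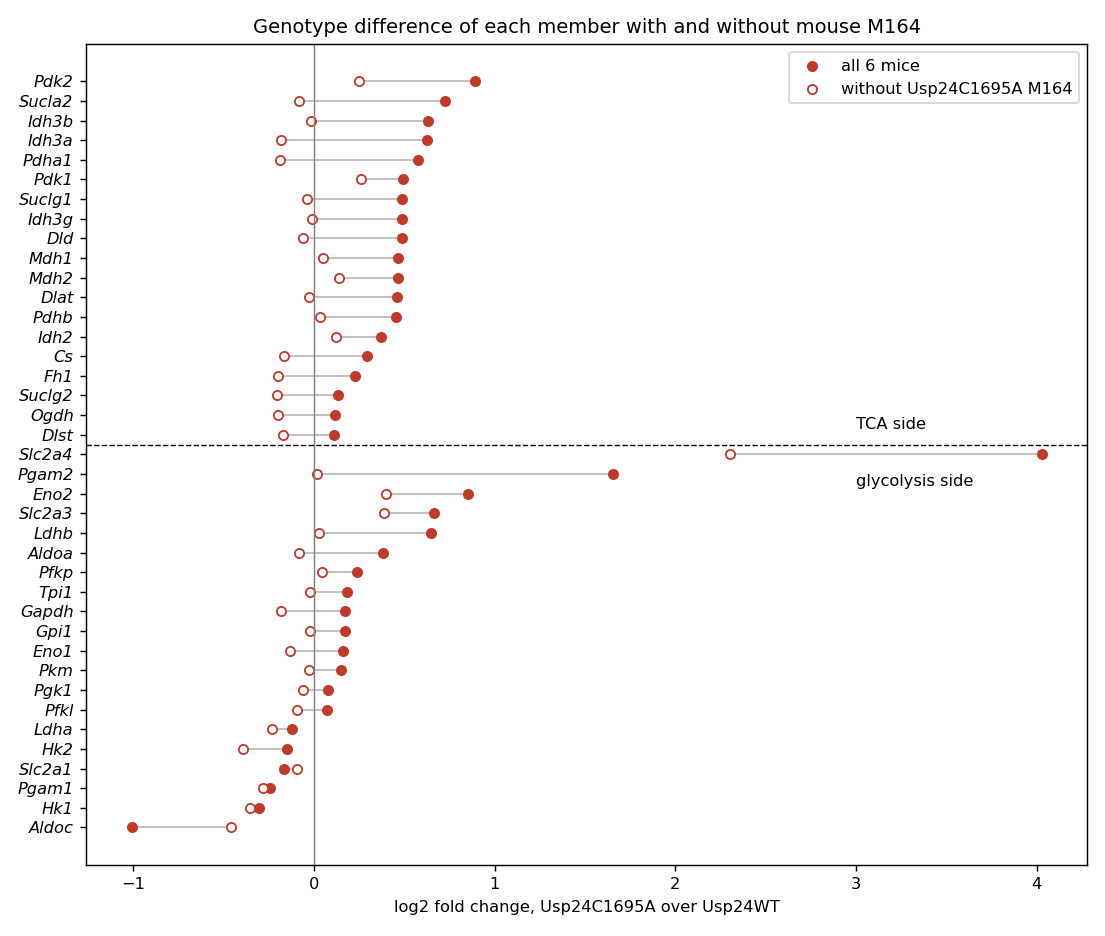
Log2 fold change of each member, *Usp24C1695A* over *Usp24WT* (x axis), with all 6 mice (filled) and without M164 (open), TCA members above the dashed line and glycolysis members below it. All 19 filled TCA points lie right of 0, and 13 of the 19 open ones lie left of 0.

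Among *Usp24WT* mice alone the sides differed in spread. The coefficient of variation over the 3 *Usp24WT* mice had a median of 10.6% on the TCA side (2.89 to 20.8%) and 29.0% on the glycolysis side (1.68 to 102%), against 20.1% over all tested genes. *Idh3a* (2.89%), *Fh1* (4.23%) and *Suclg1* (4.42%) were the steadiest TCA members, and *Aldoa* (1.68%) and *Gpi1* (3.11%) the steadiest glycolytic ones. Levels also ranged widely between members. Per kilobase of exon, *Ldha* (1320 ± 173), *Aldoa* (925 ± 15.6) and *Gapdh* (774 ± 166) were the highest members in *Usp24WT* mice and *Mdh1* (664 ± 66.9) the highest on the TCA side, whereas *Slc2a4* (1.32 ± 1.11) and *Eno2* (5.72 ± 1.66) were the lowest (normalized counts per kilobase, SD, n = 3). All members together took 0.31, 0.34 and 0.67% of the reads in *Usp24C1695A* mice, against 0.35, 0.31 and 0.34% in *Usp24WT* mice.

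Muscle isoforms were contrasted with the other members through *Pgam2*, the muscle phosphoglycerate mutase, since it alone could be measured. *Pgam2* was at 25.3, 15.8 and 636 normalized counts in *Usp24C1695A* mice, against 19.7, 11.5 and 33.8 in *Usp24WT* mice. M134 and M145 lay within the *Usp24WT* range, and M164 was at 29.3-fold of the *Usp24WT* mean. Its log2 fold change was 1.65 (SE 1.22, 95% interval -1.13 to 4.44, limma adjusted p = 0.756), against a median of 0.33 over the other 38 members, a difference of 1.32. Without M164 the log2 fold change of *Pgam2* was 0.015 and the difference 0.075.

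The balance of isoenzymes within a mouse does not depend on the scaling between libraries. Per kilobase, *Pgam2* was at 30.2, 18.8 and 757 and *Pgam1* at 170.3, 142 and 169 in *Usp24C1695A* mice, against 23.5, 13.7 and 40.3 for *Pgam2* and 234, 129 and 222 for *Pgam1* in *Usp24WT* mice. *Pgam2* thus exceeded *Pgam1* in M164 alone. On normalized counts the log2 ratio of *Pgam2* to *Pgam1* was -3.74, -4.15 and 0.93 in *Usp24C1695A* mice, against -4.56, -4.48 and -3.70 in *Usp24WT* mice. The log2 ratio of *Slc2a4* to *Slc2a1* was -3.73, -3.36 and 1.93, against -5.49, -5.37 and -8.27, the only 1 of 9 ratios whose groups did not overlap. *Slc2a4* passed the filter through the *Usp24C1695A* mice alone, so this separation adds no support. The log2 ratio of *Aldoc* to *Aldoa* was -4.37, -4.92 and -7.72, against -3.96, -4.84 and -3.99, lowest in M164. The log2 ratio of *Pdk2* to *Pdk1* was -0.07, -1.64 and 0.38, against -0.81, -0.93 and -0.79, so that M145 lay on the other side of the *Usp24WT* mice from M134 and M164.

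**Figure D3:**
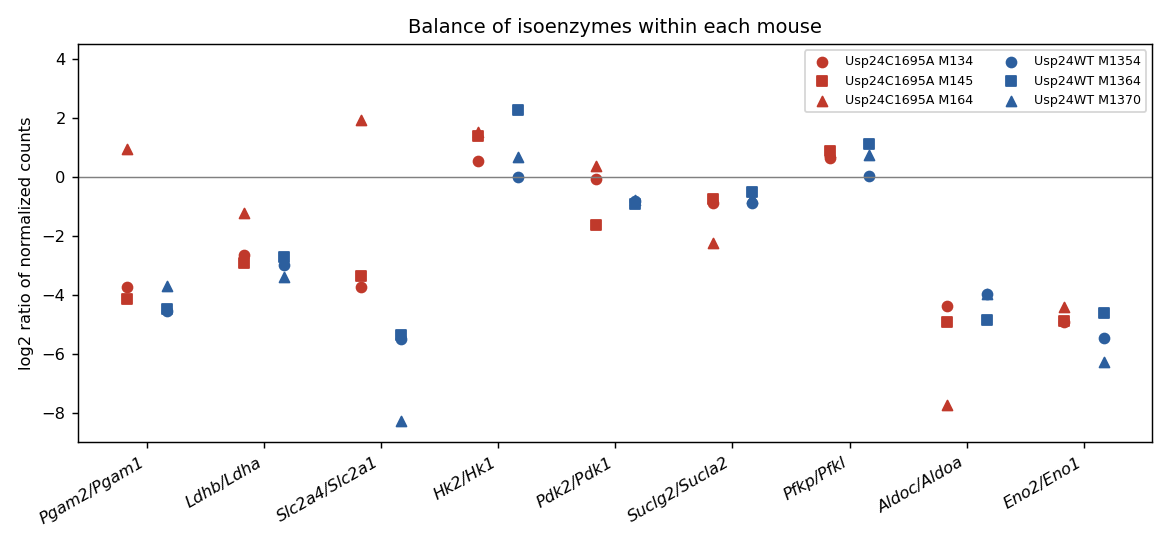
Log2 ratio of the normalized counts of 2 isoenzymes in each mouse (y axis) for 9 pairs (x axis), *Usp24C1695A* mice in red on the left and *Usp24WT* mice in blue on the right of each pair. M164 alone lies above 0 for *Pgam2*/*Pgam1* (0.93) and *Slc2a4*/*Slc2a1* (1.93), and it has the lowest ratio for *Aldoc*/*Aldoa* (-7.72) and *Suclg2*/*Sucla2* (-2.24).

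Reads can be shared between isoenzymes only where their transcripts are alike. The longest identical run between transcripts was 28 bases for *Pgam2* and *Pgam1*, 18 for *Ldhb* and *Ldha*, 25 for *Slc2a4* and *Slc2a1*, and 13 for *Suclg2* and *Sucla2*. *Eno1* and its retrocopy *Eno1b* shared 835 bases, and how the authors' counting divided such reads is not given in the sources used here. *Eno1b* was at 12.2, 21.8 and 35.6 normalized counts in *Usp24C1695A* mice, against 8.31, 20.2 and 4.70 in *Usp24WT* mice, a small part of *Eno1* at 786 or more in every mouse.

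Genes that mark muscle and fat were high in M164 together with the members, and so were some other lists. M164 was the highest mouse in 6 of 6 measured smooth muscle, 5 of 5 erythroid and 6 of 8 neuron and nerve markers. It was the highest in 0 of 8 B cell, 0 of 8 T cell and 1 of 9 macrophage markers, against 27.9% of all tested genes. Of 20 skeletal muscle markers 4 could be measured (*Mb*, *Myl1*, *Atp2a1* and *Ryr1*), with a summed level of 47.6 to 20726 normalized counts in *Usp24C1695A* mice and 21.6 to 43.6 in *Usp24WT* mice, and *Mb*, myoglobin, was at 0 in M1370. The 20726 was M164, and M134 and M145 were at 47.6 and 63.3. Of 16 heart muscle markers 11 were measured, summing to 657 to 10654 in *Usp24C1695A* mice and 385 to 424 in *Usp24WT* mice. *Ckmt2*, which encodes the mitochondrial creatine kinase of sarcomeric muscle, had 11.2, 11.9 and 1776 normalized counts in *Usp24C1695A* mice and 0 in each *Usp24WT* mouse. It passed the filter through the *Usp24C1695A* mice alone, so this separation adds no support. Of 9 tested heart muscle markers, 7 with *Ckmt2* among them lay wholly above the *Usp24WT* mice, against 5.07% of all genes. *Tnnc1* and *Ryr2* overlapped, *Ryr2* at 126, 118 and 319, against 144, 121 and 224.

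Fat markers (11 of 12 measured) summed to 10832, 22861 and 267567 in *Usp24C1695A* mice, against 9027, 13078 and 11979 in *Usp24WT* mice, and *Adipoq*, adiponectin, was at 2.03, 278 and 5589, against 1.04, 0 and 0. Brown fat markers (7 of 8 measured) summed to 305 to 8828 in *Usp24C1695A* mice, highest in M164, and to 339 to 413 in *Usp24WT* mice. *Ucp1*, the uncoupling protein that defines brown fat, was at 4.05, 23.7 and 4774 in *Usp24C1695A* mice, against 2.08, 1.44 and 0 in *Usp24WT* mice. Lung epithelium markers, 14 of 14 of them measured and above 0 in every mouse, summed to 248207 in M164 and to 511230 to 591903 in the other 5 mice. The part of muscle, fat or brown fat tissue in the members' levels was not tested, and in a bulk specimen more cells of a type and more RNA per cell cannot be told apart. In M134 and M145 the skeletal muscle sums were 47.6 and 63.3 and the heart muscle sums 1133 and 657. The median fold of the TCA side was 0.96 in each of them, and whether these values are linked was not tested.

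**Figure D4:**
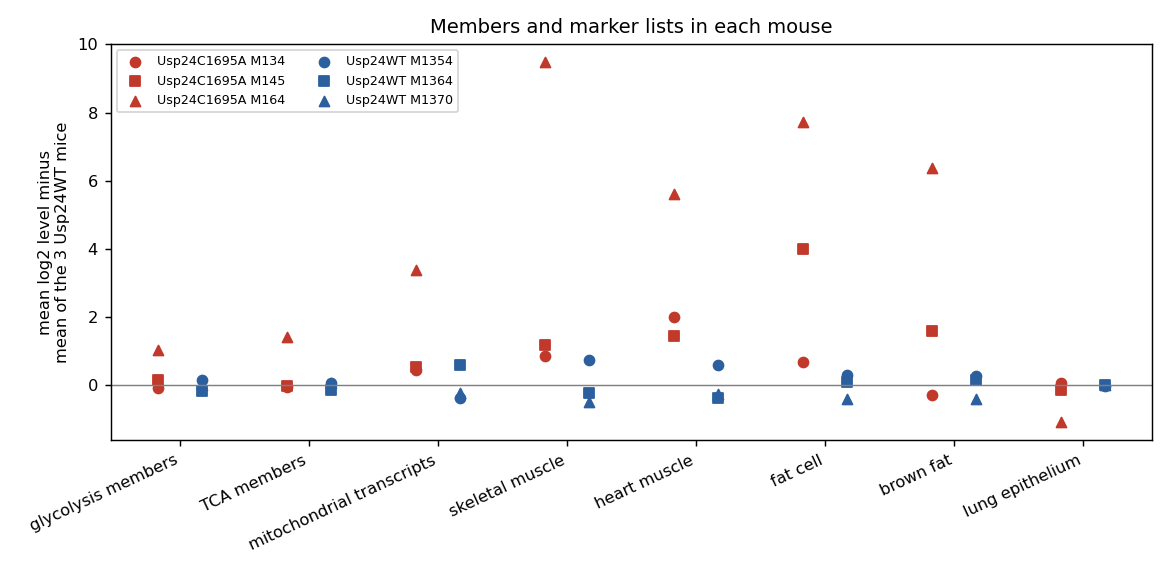
Mean log2(normalized count + 1) of the members and of marker lists in each mouse, minus the mean of the 3 *Usp24WT* mice (y axis), *Usp24C1695A* mice in red on the left and *Usp24WT* mice in blue on the right of each list. M164 is the highest point in every list but lung epithelium, where it is the lowest. M134 and M145 also lie above the *Usp24WT* mice for skeletal muscle, heart muscle and fat markers, and M145 does so for brown fat markers. By narrow margins M145 lies above them for glycolysis members and M134 for lung epithelium.

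Other genes of the pathways were read from lists of enzymes, carriers and regulators. Of 24 tested other glycolysis genes, 14 lay above 0 on the log2 fold scale (median 0.097), and 0 passed the adjusted threshold by limma-trend. At its unadjusted p under 0.05, 1 was higher and 3 lower, where 2.61% of all genes were higher and 2.93% lower. By edgeR 1 was higher and 1 lower (6.88% of all genes in either direction), and by DESeq2 1 higher and 2 lower (8.25%). The enzymes that make and break fructose 2,6-bisphosphate, the activator of phosphofructokinase, stood among these on both sides. *Pfkfb1*, the form of liver and muscle, was at 39.5, 49.5 and 299 normalized counts in *Usp24C1695A* mice, against 25.97, 27.3 and 26.3 in *Usp24WT* mice. *Pfkfb2*, the heart form, was at 878, 572 and 239.6 normalized counts in *Usp24C1695A* mice, against 993, 970.1 and 940.0 in *Usp24WT* mice. *Pfkfb4*, a hypoxia-inducible form, was at 509.9, 331 and 103 normalized counts in *Usp24C1695A* mice, against 525, 659 and 759 in *Usp24WT* mice. *Hkdc1*, a hexokinase of epithelial tissues, was at 234, 211 and 103 normalized counts in *Usp24C1695A* mice, against 321, 322 and 289 in *Usp24WT* mice. The groups did not overlap for any of the 4, with *Pfkfb1* above and the other 3 below. Their log2 fold changes were 1.63 (SE 0.70), -0.97 (0.41), -1.30 (0.51) and -0.85 (0.32) in that order, each at an adjusted p of 0.738 by limma. Without M164 they were 0.72, -0.45, -0.64 and -0.48. These 4 genes were named for their unadjusted p in the same data, so the lack of overlap adds no support. Of the 24 genes, 2 lay wholly above the *Usp24WT* mice, *Pfkfb1* and *Ldhd*, and 3 wholly below, against 5.07% and 6.03% of all genes.

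Of 31 tested other TCA cycle genes, 23 lay above 0 on the log2 fold scale (median 0.19), and 0 passed by limma-trend. At its unadjusted p under 0.05, 1 was higher and 0 lower, where 2.61% of all genes were higher and 2.93% lower. By edgeR 4 were higher and 0 lower (6.88% of all genes in either direction), and by DESeq2 5 higher and 1 lower (8.25%). The 1 gene of limma-trend, also held by the other two tools, was *Lias*, lipoic acid synthetase, which makes the cofactor of the E2 subunits *Dlat* and *Dlst*. It was at 595, 528 and 816 normalized counts in *Usp24C1695A* mice, against 498, 443 and 411 in *Usp24WT* mice, with no overlap of the groups (log2 fold change 0.50, SE 0.21, limma adjusted p = 0.738; 0.32 without M164). *Lias* was named for its unadjusted p, so this separation adds no support. Of the 31 genes, 4 lay wholly above the *Usp24WT* mice and 0 wholly below, against 5.07% and 6.03% of all genes. The succinate dehydrogenase subunits, *Pdk4* and *Pck1* were chosen for mention after their values were seen. The succinate dehydrogenase subunits *Sdha*, *Sdhb*, *Sdhc* and *Sdhd* were at 2.50, 2.72, 1.65 and 2.14-fold of the *Usp24WT* mean in M164. *Pdk4*, the pyruvate dehydrogenase kinase of fasting, fat and muscle, was at 841, 583 and 9610.4 normalized counts in *Usp24C1695A* mice, against 598, 587 and 584 in *Usp24WT* mice. M164 was at 16.3-fold for *Pdk4*, well above its 4.48-fold for *Pdk2* and 1.92-fold for *Pdk1*. *Pck1*, the gluconeogenic and glyceroneogenic enzyme of liver and fat, was at 0, 242 and 8775 normalized counts in *Usp24C1695A* mice, against 2.08, 17.3 and 0 in *Usp24WT* mice. It was high in M164 and also in M145, where fat markers were high as well. Whether these levels are linked was not tested.

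**Figure D5:**
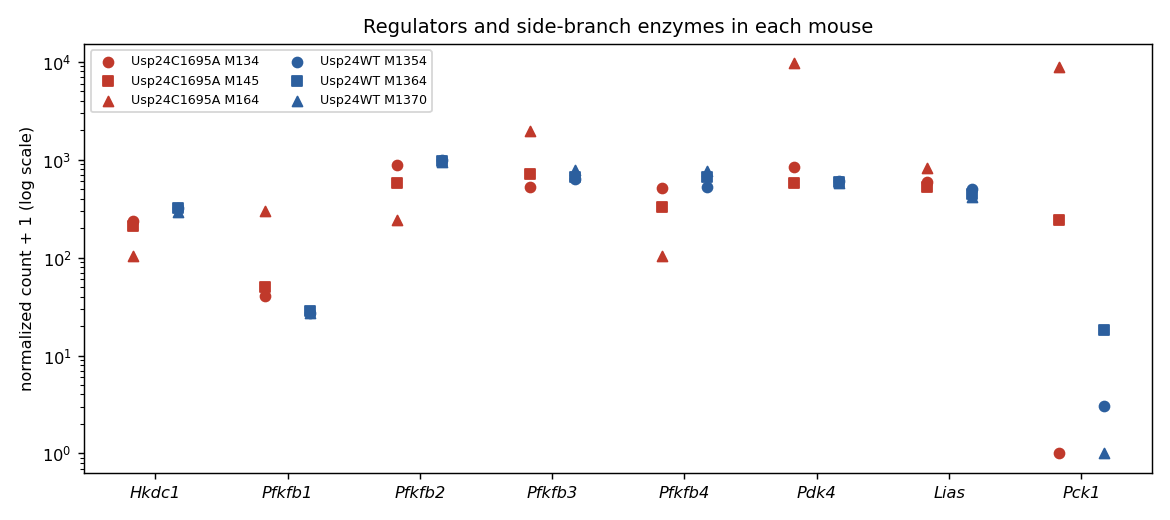
Normalized count + 1 (log scale, y axis) of 8 regulators and side-branch enzymes in each mouse, *Usp24C1695A* mice in red on the left and *Usp24WT* mice in blue on the right of each gene. *Hkdc1*, *Pfkfb2* and *Pfkfb4* lie lower and *Pfkfb1* and *Lias* higher in every *Usp24C1695A* mouse than in any *Usp24WT* mouse, while *Pdk4* and *Pck1* stand out in M164 at 9610.4 and 8775.

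Hypoxia can raise *Slc2a1*, *Pdk1*, *Ldha* and other members, and hypoxia genes outside glycolysis were read beside them. Of 14 tested genes 5 lay above 0 on the log2 fold scale (median -0.081). Their mean log2 level was 9.01, 9.44 and 9.68 in *Usp24C1695A* mice, against 9.39, 9.56 and 9.45 in *Usp24WT* mice. At an unadjusted p under 0.05 limma-trend held 0 higher and 2 lower genes, *P4ha1*, a collagen prolyl hydroxylase subunit, and *Hif1a*, the oxygen-sensitive transcription factor subunit, and edgeR and DESeq2 each held 1 higher gene besides these 2, *Bnip3*, a mitochondrial protein of mitophagy and cell death. The shares over all genes were 2.61% higher and 2.93% lower by limma-trend, and 6.88% by edgeR and 8.25% by DESeq2 in either direction. *Bnip3* was at 1241, 1019 and 3374 normalized counts in *Usp24C1695A* mice, against 856, 946 and 799.98 in *Usp24WT* mice, with no overlap of the groups and M164 at 3.89-fold of the *Usp24WT* mean (log2 fold change 0.91, SE 0.40, limma adjusted p = 0.738; 0.38 without M164). Of the 14 genes, 1 lay wholly above the *Usp24WT* mice and 2 wholly below, against 5.07% and 6.03% of all genes. *Hif1a* was at 1859, 2049.8 and 1362 normalized counts in *Usp24C1695A* mice, against 2972, 1879.8 and 3321 in *Usp24WT* mice, where the groups overlapped through M1364.

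The promoters of 38 of the 41 listed members were in the RefSeq table, with 31 starts on the glycolysis side and 25 on the TCA side. *Pfkm* and *Eno3*, whose RNA was not analysed here, are among them, while *Slc2a3*, *Slc2a4* and *Idh3a* are missing. The 20 genes of the glycolysis side counted below are therefore not the same set as the 20 measured members. The letters ACGTG, the core of the hypoxia response element, were in 41.9% of promoters on the glycolysis side and in 40% on the TCA side, against 19.6% of all promoters. The longer CACGTG, a Myc-type E-box that contains ACGTG and is itself a CANNTG, was in 6.45%, 16% and 7.15%. AAGGTCA, letters of the type bound by estrogen-related receptors, was in 6.45%, 4% and 4.72%. Starts of 1 gene overlap in sequence, so these shares are not counts of independent promoters. Counted by gene, ACGTG was in 11 of 20 genes on the glycolysis side (55%) and in 5 of 18 on the TCA side (27.8%), against 21.8% of all genes. CACGTG was then in 2 of 20 (10%) and 2 of 18 genes (11.1%), against 8.09%. AAGGTCA was in 2 of 20 (10%) and 1 of 18 genes (5.56%), against 5.38%.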

How the data were processed

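Total RNA of 6 lung tumors was sequenced, 1 library per mouse. The authors deposited signal values of 17987 genes, which are read counts scaled by library size factors. HISAT2 2.1.0 and the build mm39 come from the submitters' processing notes; the counter, annotation and strand setting are not given in the sources used here. The lowest genes of the table have 5 or more reads in 2 libraries. All 107922 values were whole multiples of their library's step within 1e-06 (100%), which gave reads for edgeR and DESeq2; for M145 the step is near 1. Depth was 7167000 to 14650273 reads.

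For the 16640 genes at 10 or more in 3 or more libraries, limma-trend without covariates compared log2(value + 1) as *Usp24C1695A* minus *Usp24WT*; this pulls fold changes of low genes toward 0. The methods name DESeq with an adjusted P under 0.05. Alternatives changed the pseudocount, filter, scaling, test, covariate and mice. Members and gene lists were chosen with earlier results of these data known. Genes outside the members were named where their unadjusted p was under 0.05 or they define a tissue; *Gpd1*, *Slc16a1*, *Mpc1*, *Mpc2*, *Pfkfb3*, *Pdk4*, *Pck1*, *Bnip3*, the succinate dehydrogenase subunits, *P4ha1* and *Hif1a* were chosen after their values were seen. Lengths are unions of exons of a GRCm38 annotation. Only limma-trend was checked on simulated data, which had less spread than was estimated for these mice. Python 3.11.15 with numpy 2.4.6, pandas 2.3.3 and matplotlib 3.10.9 was used beside DESeq2 1.42.0, edgeR 4.0.16, limma 3.58.1 and R 4.3.3.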

Additional observations from a re-analysis of the deposited data

How the results depend on the processing

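Under 17 alternatives 0 of the 39 members were called, and the lowest adjusted p of a member was 0.0818, by limma with array weights. Array weights count a library less the further it departs from the fit, and M164 had the lowest, 0.2658. Of 660 fold changes of members under alternatives, 603 kept their direction and 57 turned, in 28 members, 21 of them without M164. The glycolysis median minus the TCA median was -0.30 and became -0.055 with array weights and -0.030 without M164, and the *Pgam2* log2 fold change minus the median of the other members was 1.32 and became 2.98 with DESeq2, -0.039 with array weights and 0.075 without M164. Scaling to reads outside mitochondrial transcripts moved the median of all genes by 0.11 on the log2 scale and quantile normalization by -0.014, and the medians were then 0.28 on the glycolysis side under both, and 0.58 and 0.57 on the TCA side. A filter of 50 removed *Pgam2* and gave no value for it. Array weights turned the log2 fold change of *Slc2a1* (0.25), *Hk2* (0.25), *Pfkl* (-0.25), *Tpi1* (-0.062), *Gapdh* (-0.22), *Pgk1* (-0.11), *Pgam2* (-0.045), *Eno1* (-0.18), *Pkm* (-0.15), *Pdha1* (-0.10), *Pdk2* (-0.027), *Cs* (-0.13), *Idh2* (-0.051), *Ogdh* (-0.30), *Dlst* (-0.14), *Suclg1* (-0.069), *Suclg2* (-0.063) and *Fh1* (-0.013). A term for Y-linked transcripts turned *Slc2a1* (0.35), *Slc2a3* (-0.95), *Hk2* (0.55), *Pfkl* (-0.28), *Tpi1* (-0.0076), *Pgk1* (-0.22), *Eno1* (-0.094) and *Ogdh* (-0.12). With 1 mouse left out, the log2 fold change ranged over -0.42 to 0.040 for *Slc2a1*, -0.50 to 0.20 for *Hk2*, -0.022 to 0.29 for *Gpi1*, -0.21 to 0.25 for *Pfkl*, -0.080 to 0.65 for *Aldoa*, -0.023 to 0.34 for *Tpi1*, -0.18 to 0.37 for *Gapdh*, -0.19 to 0.26 for *Pgk1*, -0.13 to 0.40 for *Eno1*, -0.025 to 0.28 for *Pkm*, -0.23 to 0.014 for *Ldha*, -0.19 to 1.01 for *Pdha1*, -0.028 to 0.75 for *Dlat*, -0.060 to 0.83 for *Dld*, -0.17 to 0.54 for *Cs*, -0.18 to 1.14 for *Idh3a*, -0.014 to 0.97 for *Idh3b*, -0.012 to 0.76 for *Idh3g*, -0.20 to 0.28 for *Ogdh*, -0.17 to 0.31 for *Dlst*, -0.039 to 0.85 for *Suclg1*, -0.20 to 0.38 for *Suclg2*, -0.080 to 1.17 for *Sucla2* and -0.20 to 0.51 for *Fh1*. The glycolysis minus TCA median ranged from -0.42 to -0.030 in the same way. The cause of these turns was not tested. Over all genes limma-trend called 40 without M134 and 5 without M1354, none of them members. No paired analysis was possible because the genotypes share no mouse number.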

Other observations

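The following redox and carrier genes were chosen after their values were seen and are not a tested group. *Gpd1*, the cytosolic glycerol-3-phosphate dehydrogenase that links glycolysis to triglyceride synthesis, was at 255, 350.2 and 4045 normalized counts in *Usp24C1695A* mice, against 457, 233 and 401 in *Usp24WT* mice. *Slc16a1*, the monocarboxylate transporter MCT1, was at 409.5, 562 and 1477 normalized counts in *Usp24C1695A* mice, against 552, 537 and 555 in *Usp24WT* mice. M164 was the highest mouse for both, and M134 was below all *Usp24WT* mice for *Slc16a1*. The subunits of the mitochondrial pyruvate carrier were at 492, 422 and 1188 (*Mpc1*) and 637, 575 and 1394 (*Mpc2*) in *Usp24C1695A* mice, against 367, 505 and 289 and 477, 574 and 497 in *Usp24WT* mice. For *Mpc2* the groups did not overlap, by less than 1 normalized count between M145 and M1364. *Pfkfb3*, the inducible maker of fructose 2,6-bisphosphate, was at 529, 719 and 1948 normalized counts in *Usp24C1695A* mice, against 628, 659 and 780.2 in *Usp24WT* mice. None of these genes passed the adjusted threshold of limma-trend.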
